A study of Homo sapiens with 6 samples.

Results

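Splicing factor and heterogeneous nuclear ribonucleoprotein (hnRNP) genes were compared between Control and WNK463-treated MV4-11 cells, a human acute myeloid leukemia cell line. The members were the genes whose symbols begin with SRSF, SNRP, SF3A, SF3B, HNRNP, U2AF, PRPF or RBM followed by the numbers or letters of those families, without the RBMX and RBMY genes. They numbered 113 of the 20348 genes in the table. Of these, 103 passed the filter on low counts and were tested. The other 10 were SRSF12, HNRNPCL1, HNRNPCL2, HNRNPCL3, HNRNPCL4, RBM11, RBM20, RBM24, RBM46 and RBM47, and 7 of them had a count of 0 in every sample.

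The study set 3 untreated Control samples against 3 samples given 1 μM WNK463, an inhibitor of the WNK kinases, for 48 h, in order to look for the transcripts that change when WNK1 is inhibited. All 6 samples were the same cell line, with poly(A)-enriched RNA from bulk cultures. Nothing in the labels ties the samples to separate cultures, so p-values measure the spread between these samples, which may be technical. A single cell line, dose and time were sampled, and the labels name no vehicle for the Control samples.

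Pre-mRNA splicing is carried out by the spliceosome, which is built on small nuclear ribonucleoprotein particles (snRNPs). The U1 snRNP recognizes the 5′ splice site. The U2AF heterodimer binds the polypyrimidine tract and the 3′ splice site and helps bring in the U2 snRNP, whose SF3A and SF3B complexes hold the branch point. The PRPF proteins of the U4/U6.U5 tri-snRNP then help form the active site, while SR proteins and hnRNP proteins bind exons and introns and influence which sites are used. SF3B1, SRSF2 and U2AF1 are recurrently mutated in myeloid neoplasms.

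The samples held 14915745 to 17411780 counts. Between 13629 and 13697 genes had a count above 0 in Control, and between 14239 and 14403 in WNK463. The TMM factors, which scale the library sizes, were 0.944 to 0.951 in Control and 1.05 to 1.06 in WNK463. Every pair of replicates within a group differed by more than counting noise (chi-square over its degrees of freedom, 2.68 to 7.40). All 10 markers of a myeloid leukemia line passed the filter, among them CD33, FLT3, SPI1 and CD4, with summed TPM of 1016 ± 27.7 in Control and 1392 ± 4.14 in WNK463 (SD, n = 3). They moved in both directions, with 6 higher, among them PTPRC at a log2 fold change of 1.20 and ITGAM at 1.25, and 3 lower, MPO at -2.50, CD33 at -0.38 and FLT3 at -0.20. Of 12 markers of other cell types, 3 passed the filter, PECAM1, NCAM1 and the epithelial gene KRT8. KRT8 was at 9.41 CPM in Control and 12.5 CPM in WNK463, and NCAM1 was at 1.07 CPM and 0.43 CPM. The B cell gene MS4A1, the erythroid gene HBB and the epithelial gene EPCAM had no counts in any sample, and the summed TPM of the 12 was 50.7 ± 1.18 in Control and 95.3 ± 1.85 in WNK463. Among them PECAM1, which myeloid cells also express, was at 96.9 CPM in Control and 169.3 CPM in WNK463. The part of cell state in the values below was not tested. In bulk cells, fewer cells expressing a gene and less RNA per cell cannot be told apart.

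Promoters of 99 members were matched by symbol in a RefSeq promoter table on GRCh38.p14, and 4 are shown because they belong to members that fell and because they show the letters searched for below. Each sequence is the 250 bases before the RefSeq start, 5′ to 3′ on the gene's strand, with the matched letters in capitals. All 4 lie on the plus strand, at chr19:55654785-55655034 for U2AF2, chr11:66052114-66052363 for SF3B2, chr6:34757255-34757504 for SNRPC and chr2:177212544-177212793 for HNRNPA3. The U2AF2 stretch lies inside the GENCODE span of the gene given below, which starts farther upstream than the RefSeq start used here.
U2AF2: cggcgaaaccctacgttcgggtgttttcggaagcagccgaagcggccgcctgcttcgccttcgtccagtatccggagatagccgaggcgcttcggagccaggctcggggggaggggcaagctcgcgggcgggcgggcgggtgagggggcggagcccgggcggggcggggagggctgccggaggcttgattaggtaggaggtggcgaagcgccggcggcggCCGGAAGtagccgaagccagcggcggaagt
SF3B2: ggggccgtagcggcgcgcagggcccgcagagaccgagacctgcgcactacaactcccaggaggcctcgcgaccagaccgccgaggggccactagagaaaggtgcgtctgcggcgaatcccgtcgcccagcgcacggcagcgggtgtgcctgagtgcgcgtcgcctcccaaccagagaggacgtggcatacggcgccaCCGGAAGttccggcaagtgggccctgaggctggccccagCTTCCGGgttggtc
SNRPC: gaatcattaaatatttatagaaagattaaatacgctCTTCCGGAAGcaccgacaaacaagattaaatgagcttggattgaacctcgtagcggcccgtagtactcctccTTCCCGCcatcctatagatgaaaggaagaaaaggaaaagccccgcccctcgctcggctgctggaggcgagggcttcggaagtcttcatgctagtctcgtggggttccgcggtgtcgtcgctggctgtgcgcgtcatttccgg
HNRNPA3: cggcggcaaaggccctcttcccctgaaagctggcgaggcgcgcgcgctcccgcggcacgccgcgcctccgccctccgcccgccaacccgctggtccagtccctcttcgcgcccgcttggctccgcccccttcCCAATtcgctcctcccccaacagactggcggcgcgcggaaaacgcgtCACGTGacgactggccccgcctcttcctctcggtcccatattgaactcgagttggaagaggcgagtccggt
The U2AF2 promoter holds CCGGAAG, the core letters bound by ETS factors. The SF3B2 promoter holds them on each strand, and the SNRPC promoter holds an overlapping pair on opposite strands and, farther downstream, TTCCCGC, the reverse complement of the E2F letters GCGGGAA. The HNRNPA3 promoter holds CCAAT and the E-box CACGTG, but not CCGGAAG.

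Splicing factor genes were mostly lower with WNK463. Of the 103 tested members, 63 fell and 16 rose by edgeR's quasi-likelihood test (adjusted p below 0.05), and 24 were not called. Over all 11973 tested genes, 70.8% passed in either direction, 35.5% as higher and 35.3% as lower. The median log2 fold change was -0.35 for the tested members and 0.02 for all tested genes. The members' TPM summed to 22188, 23398 and 23214 in the Control samples and to 17926, 18596 and 18061 in the WNK463 samples, so that all 3 treated samples lay below all 3 Control samples.

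**Figure D1:**
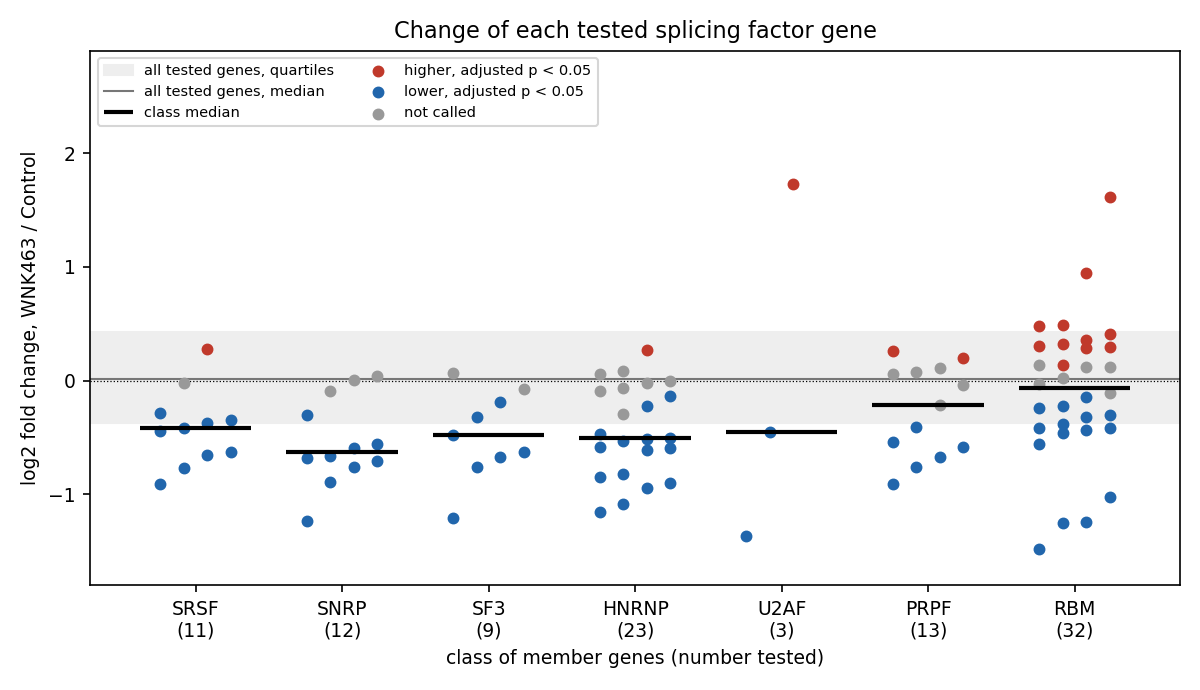
Log2 fold change of WNK463 over Control (vertical axis) of each tested member, by class (horizontal axis, with the number tested). Points are genes, coloured by the call at an adjusted p below 0.05, black lines are class medians, and the band spans the quartiles of all 11973 tested genes. The SNRP and SF3 classes have no gene called higher, while the RBM class has 11.

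The split depended on the scaling and on the level of the genes. With scaling to total counts, which moved the median of all tested genes by 0.15 on the log2 scale, 55 members were lower and 25 higher, and of all tested genes 26.1% were lower and 46.1% higher. With limma on log2(TPM + 1), 52 of 102 were lower and 23 higher, and of all genes tested in that way 23.4% were lower and 43.3% higher. At a Control mean of at least 100 TPM, 45 of 56 members (80.4%) were lower and 1, RBM8A, was higher, and of the 1641 other genes at that level 65.2% were lower and 15.3% higher. Their median log2 fold changes were -0.57 for the members and -0.28 for the other genes. Below 100 TPM, 38.3% of 47 members were lower and 31.9% higher, and of the other genes 30.2% were lower and 38.9% higher.

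**Figure D2:**
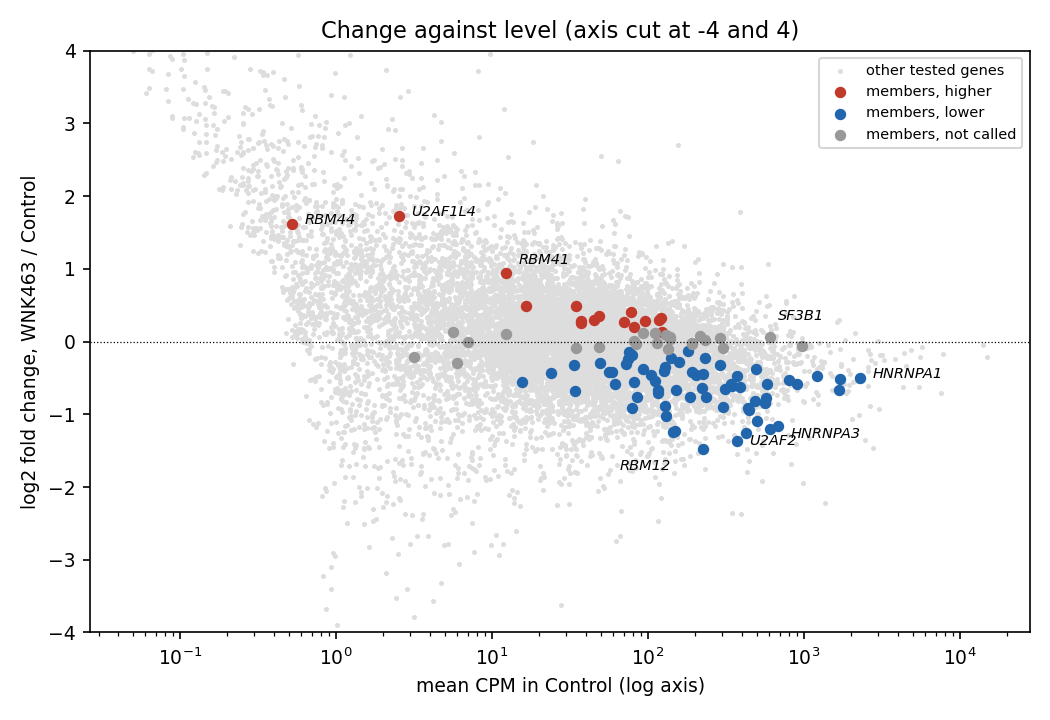
Log2 fold change of WNK463 over Control (vertical axis) against the mean CPM in Control (horizontal log axis), with tested members as coloured points over the other tested genes in grey. Members above about 100 CPM are mostly lower. The members called higher at least 2-fold, U2AF1L4 and RBM44, have Control means of 2.52 and 0.521 CPM. RBM44 passed the filter only through its WNK463 values.

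In 64 members all 3 WNK463 values lay below all 3 Control values, and in 15 they lay above. Over all tested genes the groups did not overlap for 73.5%, with WNK463 above for 37.1% and below for 36.4%. A change of at least 2-fold was called for 11 members, of which 9 were lower and 2 higher. Of these 2, RBM44 passed the filter on low counts only through its WNK463 values. The share of all tested genes with such a call was 15.2%, with 5.55% lower and 9.62% higher. With limma on log2(TPM + 1), 6 members passed at least 2-fold.

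Of the 3 U2AF genes, which encode 3′ splice site factors, 2 were lower and 1 was higher. Of all tested genes 35.3% were lower and 35.5% higher. U2AF2, the large subunit that binds the polypyrimidine tract (chromosome 19, 55654146 to 55674715, GRCh38), measured 369.8, 383.9 and 356.3 CPM (counts per 1000000, with TMM library sizes) in Control and 140.1, 146.5 and 144.7 CPM in WNK463. The groups were far apart, with a log2 fold change of -1.36 ± 0.05 (SE) and an adjusted p of 9.48e-14. U2AF1, the small subunit that reads the AG of the 3′ splice site, measured 98.6, 109.0 and 104.2 CPM in Control and 72.8, 81.6 and 73.2 CPM in WNK463. It fell by 0.45 on the log2 scale, and all treated samples lay below all Control samples.

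U2AF1L4, a paralog of the small subunit, rose. Its values were 2.19, 2.68 and 2.68 CPM in Control and 7.49, 8.08 and 9.45 CPM in WNK463, with a log2 fold change of 1.73 ± 0.18 and an adjusted p of 1.34e-07. It remained the lowest of the 3 on the per-length scale, at 25.2 TPM in WNK463 against 117.2 TPM for U2AF2 and 169.5 TPM for U2AF1. Of its exon bases, 24.8% are shared on the same strand with AD000671.2, which had a log2 fold change of 1.52, so reads of these genes may be split between them.

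Core snRNP proteins fell or did not pass the test. Of the 12 SNRP genes, 9 (75%) were lower and 0 higher, with a median log2 fold change of -0.63. Lower calls covered 35.3% of all tested genes and 65.2% of non-member genes at a Control mean of at least 100 TPM. SNRPA, the U1 snRNP protein A, measured 152.4, 148.9 and 144.8 CPM in Control and 63.9, 60.4 and 65.3 CPM in WNK463, a log2 fold change of -1.23 ± 0.05. The U1 protein SNRPC and the U2 protein SNRPA1 fell by 0.71 and 0.59 on the log2 scale. The U2 protein SNRPB2 measured 81.3 ± 5.78 CPM in Control and 81.6 ± 6.61 CPM in WNK463 (SD, n = 3), and its groups overlapped.

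The Sm proteins form the ring around the snRNA of most spliceosomal snRNPs. Of their 8 genes, 6 were lower. SNRPD3 fell from 128.6 ± 3.46 to 69.3 ± 1.48 CPM, a log2 fold change of -0.89, and SNRPB, the most abundant SNRP gene in Control at 412.9 TPM, fell by 0.76 on the log2 scale. SNRPE (-0.09) and SNRPN (0.04) were not called. SNRPN is a close paralog of SNRPB and shares 23.8% of its exon bases with SNURF, so its value is uncertain. With total counts 1 SNRP gene was higher, and with limma on log2(TPM + 1) 2 were.

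Of the 9 SF3 genes, whose products bind the branch point region, 7 (77.8%) were lower and 0 higher, with a median of -0.48. Lower calls covered 35.3% of all tested genes and 65.2% of non-member genes at a Control mean of at least 100 TPM. SF3B3, a scaffold of the SF3B complex, measured 635.2, 592.5 and 587.0 CPM in Control and 267.7, 247.6 and 271.2 CPM in WNK463. Its log2 fold change was -1.21 ± 0.05, and the groups did not overlap. All 3 SF3A genes fell, led by SF3A2 at -0.76.

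SF3B1, the branch point scaffold of the same complex, measured 562.9, 602.1 and 641.6 CPM in Control and 626.8, 653.8 and 606.3 CPM in WNK463, with overlapping groups, a log2 fold change of 0.06 ± 0.05 and an adjusted p of 0.28. With total counts the value was 0.21 and with limma on log2(TPM + 1) it was 0.29, and both passed as higher. At 282.9 TPM in Control and 345.0 TPM in WNK463 it was the most abundant SF3 gene.

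The PRPF genes of the tri-snRNP fell apart from PRPF6. Of the 5 PRPF genes in this group 4 were lower, and PRPF6 had a log2 fold change of 0.08 and was not called. PRPF8, the U5 protein at the centre of the catalytic site, measured 1770, 1639 and 1632 CPM in Control and 1121, 999.7 and 1048 CPM in WNK463, a log2 fold change of -0.67. The U4/U6 proteins PRPF3 and PRPF31 fell by 0.91 and 0.76. Among the other 8 PRPF genes 2 were lower, the ubiquitin ligase PRPF19 at -0.58 and PRPF38A at -0.41, and 2 were higher, PRPF39 at 0.26 and PRPF38B at 0.20. The kinase PRPF4B measured 191.5 ± 21.8 CPM in Control and 186.7 ± 11.3 CPM in WNK463. Over the 13 PRPF genes 46.2% were lower and 15.4% higher, against 35.3% and 35.5% of all tested genes. Their median was -0.21, and the count of higher genes was 4 with total counts and 1 without WNK463 sample 2.

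**Figure D3:**
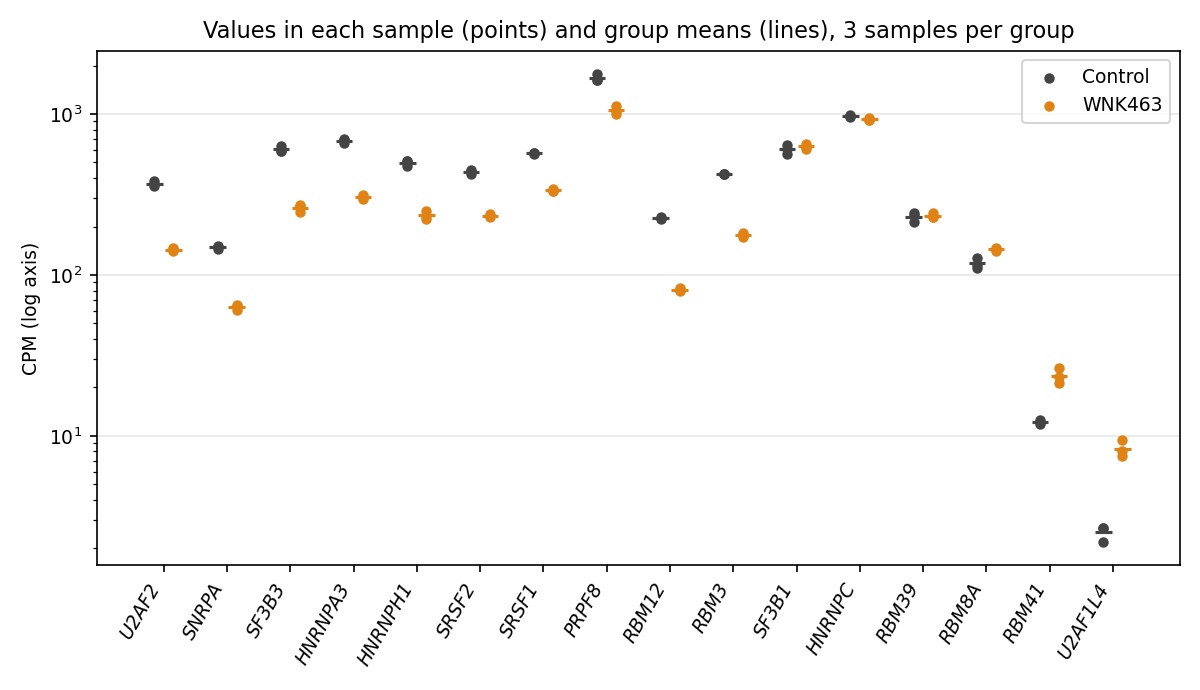
CPM (vertical log axis) of 16 members in each of the 3 Control and 3 WNK463 samples, with points for samples and short lines for group means. U2AF2, SNRPA, SF3B3, HNRNPA3, HNRNPH1, RBM12 and RBM3 have group means at least 2-fold apart, while the points of SF3B1 and RBM39 overlap between groups.

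SR proteins bind exonic enhancers and promote the use of nearby splice sites. Of 11 tested SRSF genes 9 (81.8%) were lower and 1 was higher, with a median of -0.42. Lower calls covered 35.3% of all tested genes and 65.2% of non-member genes at a Control mean of at least 100 TPM. SRSF2 measured 441.5, 448.4 and 423.7 CPM in Control and 229.3, 237.6 and 233.8 CPM in WNK463, a log2 fold change of -0.91 ± 0.05. SRSF1, the prototype of the family, measured 566.4, 574.0 and 574.2 CPM in Control and 334.3, 340.5 and 331.3 CPM in WNK463, a log2 fold change of -0.77. In both genes the groups were clearly separated. SRSF1 shares 56.6% of its exon bases on the same strand with AC015813.2, which had a log2 fold change of 0.62. Exon bases of SRSF2 overlap those of MFSD11 on the opposite strand over 36.7%, and the strand setting of the counting is not given in the sources used here.

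SRSF3, the most abundant SRSF gene in Control at 464.2 TPM, fell by 0.38, and SRSF6 fell by 0.65. SRSF8 rose from 37.0 ± 1.28 to 44.9 ± 1.96 CPM, a log2 fold change of 0.28. SRSF11 had overlapping groups, with 191.9 ± 12.4 CPM in Control and 188.5 ± 19.1 CPM in WNK463.

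HNRNP proteins coat nascent transcripts and often repress splice sites. Of 23 tested HNRNP genes 15 (65.2%) were lower and 1 was higher, with a median of -0.50. This share lower was above the 35.3% of all tested genes. It equalled the 65.2% of non-member genes at a Control mean of at least 100 TPM. HNRNPA3 measured 660.8, 692.1 and 694.6 CPM in Control and 297.6, 314.5 and 305.8 CPM in WNK463, a log2 fold change of -1.16 ± 0.05. HNRNPH1, which binds G-rich tracts, measured 473.6, 513.7 and 507.1 CPM in Control and 221.8, 249.4 and 232.4 CPM in WNK463, a log2 fold change of -1.09. HNRNPM followed at -0.94. The groups of these 3 genes did not overlap.

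HNRNPA1 was the most abundant member, at 2959 TPM in Control and 2297 TPM in WNK463, and its log2 fold change in counts was -0.50. Its near-copies HNRNPA1L2 and HNRNPA1L3 had Control means of 7.02 and 5.96 CPM and did not pass, and reads may be shared with HNRNPA1. HNRNPC, which binds uridine tracts, measured 952.0, 971.4 and 986.4 CPM in Control and 912.1, 923.6 and 941.8 CPM in WNK463, with an adjusted p of 0.16 although its groups did not overlap. In TPM the order was reversed. Summed with the untested HNRNPCL genes, TPM was 1131, 1171 and 1206 in Control and 1308, 1333 and 1357 in WNK463. The direction of HNRNPC thus depended on the scale. The HNRNPH1 relatives HNRNPH2 and HNRNPH3 had log2 fold changes of -0.02 and 0.08, and the differences between these genes were not tested. HNRNPLL, a regulator of CD45 splicing, was the member called higher, at 0.27, and 3 HNRNP genes were higher with total counts.

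The RBM genes share an RNA-binding domain rather than a role. Of 32 tested, 15 (46.9%) were lower and 11 (34.4%) higher, with a median of -0.07. Of all tested genes, 35.3% were lower and 35.5% higher, so the share of RBM genes called higher was near that of all genes. RBM12 measured 227.1, 222.2 and 228.8 CPM in Control and 83.2, 80.4 and 79.2 CPM in WNK463, a log2 fold change of -1.48 ± 0.05 and the lowest of all members. RBM3, a cold-inducible RNA-binding protein and the most abundant RBM gene in Control, measured 424.9, 423.0 and 423.8 CPM in Control and 173.1, 177.2 and 183.5 CPM in WNK463, a log2 fold change of -1.25. The paraspeckle protein RBM14 and the splicing regulator RBM10 fell by 1.24 and 1.02.

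Among RBM genes called higher, RBM44 measured 0.304, 0.892 and 0.366 CPM in Control and 1.57, 1.74 and 1.40 CPM in WNK463, near the limit of the filter. RBM44 passed the filter only through its WNK463 values, so its place among the higher members is a description. RBM41, a protein of the minor spliceosome, measured 11.9, 12.1 and 12.6 CPM in Control and 21.3, 26.3 and 23.2 CPM in WNK463, a log2 fold change of 0.95. RBM7 of the nuclear exosome targeting complex and RBM8A of the exon junction complex had log2 fold changes of 0.49 and 0.29. The ratio of count to TPM, described below, was higher by 0.36 on the log2 scale in RBM8A and by 0.50 in RBM41. The part of estimated transcript length in their count changes was not tested. RBM39 had overlapping groups, at 230.6 ± 15.2 and 233.6 ± 8.03 CPM. With total counts, where more of all tested genes were also higher, 14 RBM genes were higher and 11 lower.

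Other genes of the splicing pathway were mostly lower too, as were 65.2% of the non-member genes at a Control mean of at least 100 TPM. Of all tested genes 35.3% were lower and 35.5% higher. The lists below were not matched for level. Of 35 other snRNP and LSm genes 25 (71.4%) were lower and 7 (20%) higher. Among them were SNRNP25 at -1.17, SNRNP40 at -1.13 and the U12-type 3′ splice site factor ZRSR2 at 1.31. Of 28 genes of the PRP19 complex and catalytic steps 16 (57.1%) were lower and 3 (10.7%) higher. Among them were DHX15 at -0.80, MFAP1 at -0.68 and SYF2 at 0.68. Of 40 tested splicing regulators outside the member families 26 (65%) were lower and 6 (15%) higher, among them FUBP1 at -1.69 and PTBP1 at -1.40.

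Of 19 genes of snRNP assembly 12 (63.2%) were lower and 0 higher, led by GEMIN4 at -1.14, GEMIN5 at -0.95 and CLNS1A at -0.87. Of 15 exon junction and nonsense-mediated decay genes 9 (60%) were lower and 2 (13.3%) higher. Among them were SMG5 at -0.68, UPF1 at -0.53 and EIF4A3 at -0.53. The 10 genes for SR protein kinases and PPP1R8, a regulatory subunit of a phosphatase, had 4 lower and 3 higher. These counts were near the shares over all tested genes of 35.3% and 35.5%. CLK4 measured 17.41, 16.19 and 17.99 CPM in Control and 35.6, 43.8 and 32.9 CPM in WNK463, a log2 fold change of 1.12, and CLK1 had 0.75. The third named kinase, SRPK3, was at 1.96 CPM in Control and had a log2 fold change of -0.74.

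**Figure D4:**
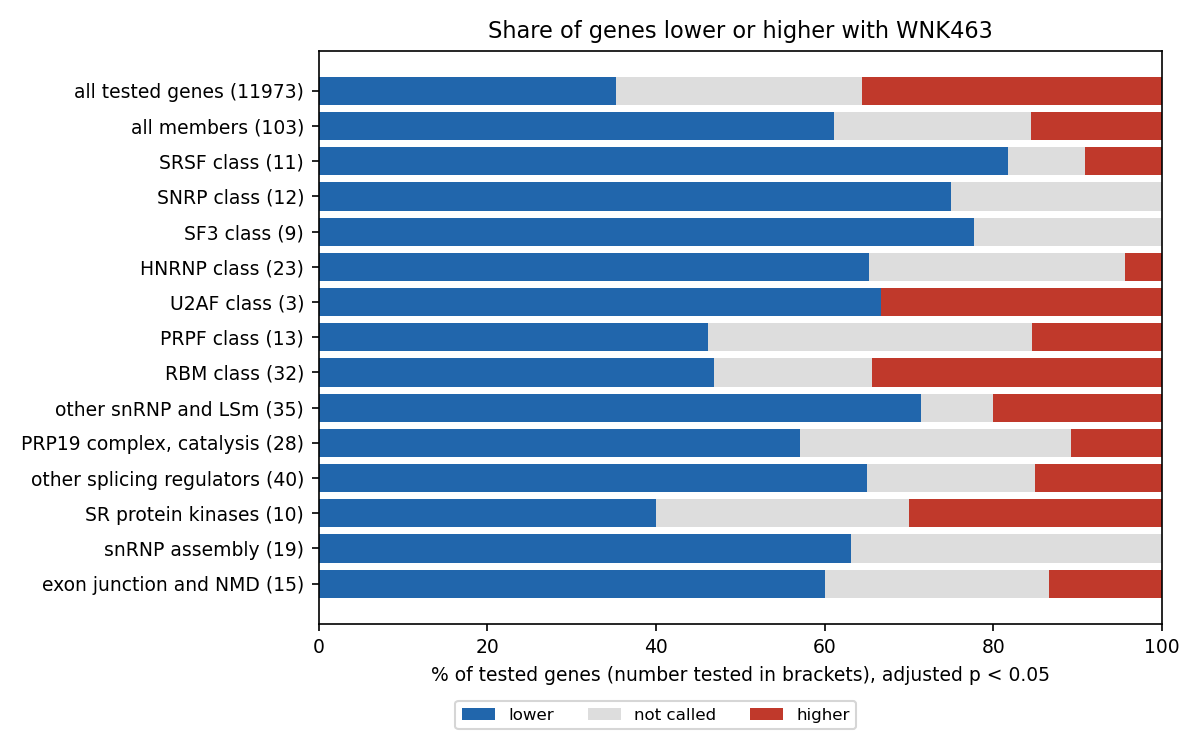
Percentage of tested genes (horizontal axis) called lower, not called or called higher at an adjusted p below 0.05, for all tested genes, all tested members, each class and each list of other splicing genes, with the number tested in brackets. The SNRP, SF3 and snRNP assembly rows have no share called higher.

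Because TPM corrects for the estimated length of a gene's transcripts and counts do not, the ratio of count to TPM follows that length. The ratio was centred so that the median gene did not change. It was available for 100 members with at least 50 counts in every sample. In 11 of them WNK463 lay above Control by at least 10% without overlap, and in 1, SRSF8, it lay below. Over 9938 genes the shares were 6.1% above and 1.59% below. In genes with 1 annotated transcript, where no change of isoform is possible in the annotation, the 5th and 95th percentiles of the change were -0.15% and 0.30%. In the 9431 genes with over 1 annotated transcript, these percentiles were wider, at -6.96% and 14.94%. The 11 members above and SRSF8 each have over 1 annotated transcript, so the wider range is their background.

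RBM8A had relative ratios of 1.03, 0.995 and 0.977 in Control and 1.29, 1.28 and 1.29 in WNK463. SRSF6 had ratios of 1.04, 0.967 and 0.994 in Control and 1.25, 1.35 and 1.27 in WNK463. In both genes the treated samples were closer to each other than to any Control sample. The other members above were RBM41, RBM23, RBM33, RBM28, HNRNPDL, RBM12, HNRNPU, RBM4 and SRSF7, with changes of 10.2% to 41.9%.

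By limma, 7 members passed at an adjusted p below 0.05 with a change of at least 10%, and 1.07% of all genes passed as longer. These were SRSF6, RBM8A, RBM33, HNRNPDL, HNRNPU, RBM4 and SRSF7. The calls did not hold when a sample was left out, with 0 to 2 members passing, and none passed with a replicate block, by limma, where 0 of all 9938 genes passed. The ratio does not show which transcript changed.

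**Figure D5:**
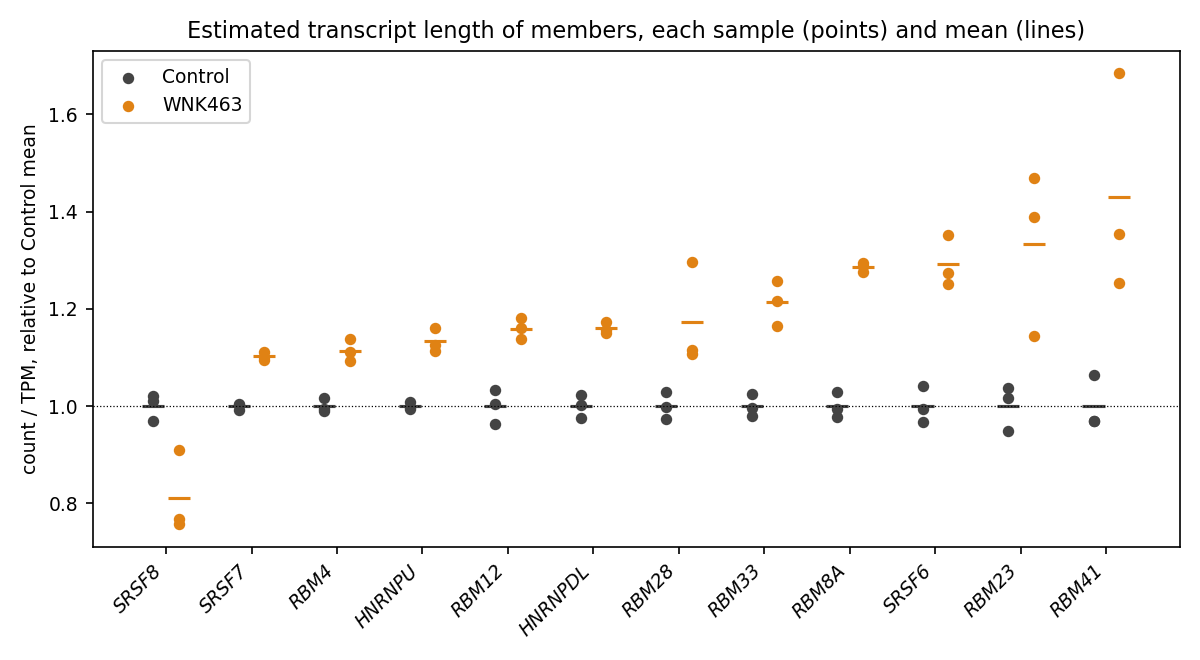
Ratio of count to TPM relative to the Control mean (vertical axis) for the 12 members whose groups differ by at least 10% without overlap, with points for the 3 samples of each group and short lines for means. SRSF8 lies below 1 in WNK463 and the other 11 lie above, with the spread widest for RBM41, RBM23 and RBM28.

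A total of 5 sets of letters were counted on both strands of the 250 bases before the start. CCGGAAG was in 28 of 99 member promoters (28.3%), in 17.1% of the promoters of tested genes and in 8.52% of all promoters in the table. It was in 13 of 19 SNRP and SF3 promoters (68.4%), those of SNRPB2, SNRPE and SF3B6 included, which were not called, and in 3 of 24 HNRNP promoters. CCAAT was in 48.5% of member promoters against 35.3% of those of tested genes and 32.0% of all, CACGTG in 10.1% against 9.11% and 6.34%, GCGGGAA in 12.1% against 9.05% and 5.52%, and GCGCATGC in 6.06% against 5.12% and 2.63%. Between the 57 promoters of members called lower and the 14 of members called higher the letters differed in no single direction, with CCGGAAG in 33.3% and 21.4%, CACGTG in 10.5% and 0%, CCAAT in 49.1% and 50%, GCGGGAA in 12.3% and 21.4%, and GCGCATGC in 5.26% and 21.4%. These shares are descriptions of letters and were not tested.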

How the data were processed

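RNA of 3 Control and 3 WNK463-treated MV4-11 samples had been sequenced. The members and gene lists were chosen with earlier results of these data known. The count to TPM ratio, the split at 100 TPM, the promoter letters, the leaving out of members with shared exons and the minor spliceosome list were added after the data were seen. The deposited table holds the authors' estimated counts per gene, given as whole numbers without normalization, and the authors' TPM. It also holds group means, a fold change and p-values of the authors' comparison, which were not used. The submitters' processing notes list fastp, Bowtie2, HISAT2, StringTie, RSEM, DESeq2, edgeR and GRCh38 without roles.

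Counts were tested with edgeR 4.0.16 (TMM, default filter, quasi-likelihood, no block) in R 4.3.3, with Benjamini-Hochberg adjustment over 11973 genes. The standard error is the absolute log2 fold change over the square root of F. The scripts were tested on simulated data. Alternatives used DESeq2 1.42.0 and limma 3.58.1 on log2(TPM + 1) and log2(TPM + 0.1) at a mean TPM of at least 1. Exact permutation of 3 against 3 cannot go below p = 0.10, so no single-value test was made. The ratio of count to TPM was tested with limma. It was first centred on each sample's median ratio, which left the median gene at -2.14%, and the centring was replaced after that result was seen by the median deviation from each gene's mean. Gene positions are from GENCODE on GRCh38. In each class the text names the called members with at least 2-fold change, the 3 largest changes, the highest Control TPM and the value nearest 0, and always SF3B1, SRSF2 and U2AF1, with the 3 largest called changes of each list, apart from items that are not reported here. Other members were named after their values were seen.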

Additional observations from a re-analysis of the deposited data

How the results depend on the processing

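DESeq2 and the replicate block gave the same call as the main analysis for 103 of 103 tested members, with 63 lower and 16 higher in each. Total-count scaling gave 86 of 103 and limma on log2(TPM + 1) 79 of 102, with 0 opposite calls in any setting. With total counts 25 members were higher, the median was -0.20, and the higher genes numbered 1 in SNRP, 1 in SF3, 3 in HNRNP and 4 in PRPF. With limma on log2(TPM + 1) and log2(TPM + 0.1), 6 members changed at least 2-fold, the medians were -0.18 and -0.18, and the higher genes numbered 2 in SNRP, 1 in SF3 and 3 in HNRNP in both. At an adjusted p below 0.01, 60 members were lower and 14 higher, and without the 26 members that share exons 48 were lower and 12 higher of 77. The cause of these shifts was not tested.

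With each sample left out, 61 to 66 members were lower, 15 to 18 higher and 11 to 12 changed at least 2-fold, the median was -0.38 to -0.36, and the higher PRPF genes numbered 1 to 2. Members with a longer estimated length numbered 0 to 2 with each sample left out, 0 with the replicate block, and 11 with 1 shorter when no minimum change was set. The first centring gave 8 longer and 1 shorter, with 254 and 153 over all genes. The same replicate numbers did not pair the samples, since the correlations of same-numbered deviations were 0.01, 0.03 and -0.07.

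Of 400 values of 31 named members under the alternatives, 369 kept direction and call, 9 passed only under the alternative and 22 turned direction, all in members that had not passed. The 9 were values of SF3B1, RBM39, SNRPB2 and PRPF4B. Total-count scaling moved the median of all tested genes by 0.15 and these genes by about as much, so the turns it gave are of values that lay near 0. SRSF11 turned to 0.13 with total counts and to 0.10 with limma at either pseudocount, and lay between -0.11 and 0.036 with each sample left out. SNRPB2 turned to -0.010 with no filter, and lay between -0.063 and 0.053 with each sample left out. HNRNPA1L2 turned to 0.15 with total counts, to 0.014 with at least 10 counts in every sample and to 0.18 and 0.19 with limma, and lay between -0.084 and 0.082 with each sample left out. PRPF4B turned to 0.12 with total counts and to 0.15 with limma at either pseudocount, and lay between -0.13 and 0.020 with each sample left out. RBM39 lay between -0.039 and 0.047 with each sample left out.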

Other observations

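Genes of the minor spliceosome, which removes U12-type introns, were listed after RBM41, RBM48 and ZRSR2 had been seen to be higher, so their counts are a description. Of 13 genes tested, 8 were higher and 4 lower, with a median log2 fold change of 0.19. The 8 and the median include RBM41, RBM48 and ZRSR2, whose rise prompted the list. Over all tested genes, 35.5% were higher and 35.3% lower, with a median of 0.02. ZRSR2 rose from 15.8 to 39.0 CPM, CENATAC from 4.08 to 8.92, SNRNP48 from 24.4 to 52.3 and RNPC3 from 20.5 to 41.8. SNRNP25, a protein of the U11/U12 particle, fell from 74.6 to 33.1 CPM, and SNRNP35 fell from 10.5 to 7.53.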
